A study of Mus musculus with 20 samples.

Results

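An alternative 5′ splice site pair is a set of 2 donor sites that are joined to the same 3′ splice site, so that a stretch of RNA between them is either kept in the exon or removed with the intron. Pairs whose 5′ sites lie 4 to 200 bp apart were collected from the deposited junction counts of mouse bone marrow. Only junctions annotated at both ends and as a whole were used, on the same chromosome and strand, and pairs with such a junction lying between the 2 sites were left out. The rule found 3162 pairs in 2212 genes among 36814 pairs that share a 3′ or a 5′ splice site at any distance, and 2077 of the 3162 (65.7%) had enough reads to be tested. Of the remainder, 625 had fewer than 10 reads per mouse on both sites together and 460 had a lesser site with under 1 read per mouse. The pairs ended at 2652 3′ sites, 247 of which served more than 1 pair. The site next to the intron is called proximal and the one further into the exon distal. The measure throughout is the proximal share, the reads on the proximal junction as a percentage of the reads on both.

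The bone marrow came from 20 recipient mice in 4 groups of 5. The groups are given in a fixed order below: U2AF1(WT) under vehicle, U2AF1(WT) under the drug, U2AF1(S34F) under vehicle and U2AF1(S34F) under the drug. All recipients were irradiated (C57BL/6 × 129S4Sv/Jae)F1 mice that carried transplanted marrow of donors with the rtTA activator and a doxycycline-inducible transgene, either wild-type U2AF1 or U2AF1 with the S34F change. All received doxycycline chow at 625 ppm for 7 days after at least 6 weeks of engraftment, and sudemycin D6 or vehicle was infused intravenously over the last 5 of those days. The design asks what the mutant does, what the drug does in each genotype, and whether both together differ from either alone. Donor marrow was pooled before transplantation, so that mice of a genotype are separate recipients but may share donors, and p-values measure the spread between recipients.

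The 5′ splice site is first recognised by base pairing with U1 snRNA, which favours GT followed by A or G, A, G and T in the intron, and is later handed to U6 snRNA. When 2 such sites lie near each other, U1, its helper proteins and SR or hnRNP proteins bound to the exon help to set which one is used. U2AF1 acts at the other end of the intron, where it contacts the AG of the 3′ splice site, and its S34F change is recurrent in myelodysplastic syndromes. Sudemycin D6 binds SF3B1, the U2 snRNP protein that settles on the branch point. Both 5′ sites of a pair here are joined to the same 3′ splice site, so that the share compares donors and not acceptors. It cannot tell donor choice apart from decay of one form or, near the 5′ end of a gene, from transcription that starts between the sites.

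The sites that carry the results are shown first, read from the mm9 assembly (NCBI build 37) in the direction of the gene, with the first 2 intron bases of each 5′ site in capitals. Where the sites were close enough, one run holds both, the distal site first. The Srsf5, Rps28, Rbm3 and Rpl7a runs are those of the most-read pairs 4 bp apart. Ncaph2 and Ncor1 moved with sudemycin D6, Lyrm5 and Celf2 with the mutant.
Srsf5 (chr12:82046653-82046665, plus strand): ccgGTagGTgagt
Rps28 (chr17:33960132-33960144, minus strand): ctgGTggGTaagt
Rbm3 (chrX:7720367-7720379, minus strand): aatGTagGTgaga
Rpl7a (chr2:26767673-26767685, plus strand): cgaGCagGTcagt
Ncaph2 (chr15:89186355-89186380, plus strand): tggGCgagtatctggaggagGTgagg
Ncor1 (chr11:62191993-62192019, minus strand): aaaGTgagtagagcagtagtgGTaagt
Lyrm5 (chr6:145159762-145159778, plus strand): ctgGTggtgaaGTatgc
Celf2 (chr2:6481699-6481719, minus strand): cagGTaccataaacaGTgagt

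Rab6 and Csf3r moved with both the drug and the mutant, and Rpl29 with the mutant. Their sites are too far apart for one run, so the last 3 exon and first 6 intron bases of each are given.
Rab6 proximal (chr7:107778455-107778463, plus strand): caaGTgagt
Rab6 distal (chr7:107778283-107778291, plus strand): caaGTaggt
Csf3r proximal (chr4:125704642-125704650, plus strand): gaaGTaagt
Csf3r distal (chr4:125704558-125704566, plus strand): cagGTaagc
Rpl29 proximal (chr9:106331968-106331976, plus strand): gagGCaggc
Rpl29 distal (chr9:106331905-106331913, plus strand): accGTgagt

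Each mouse had 34384214 to 64813149 reads on junctions (median 52634698), and a tested pair had a median of 120.3 reads per mouse on its 2 junctions. Reads on the mouse U2af1 gene, which do not tell the mutant from the wild-type form, were at 36.1 ± 1.39, 42.1 ± 3.73, 51.1 ± 2.98 and 55.2 ± 3.26 CPM (SD, n = 5) in the 4 groups in the order above. All U2AF1(WT) mice had 39145 to 78640 Xist reads and 0 to 4 reads on Y-linked genes. All U2AF1(S34F) mice had 1 to 8 and 10270 to 15034. The transgene thus cannot be told apart from the sex pattern of the samples in any genotype comparison. Effects named below for the mutant are differences between these 2 sets of mice. The defining neutrophil genes were abundant in every mouse, with none of 13 at 0. Their summed level had medians of 73820 and 72160 CPM in the U2AF1(WT) groups and 109000 and 108700 CPM in the U2AF1(S34F) groups, with ranges of 65460 to 111800 and 80590 to 149600 CPM, and its part in the genotype results was not tested. The summed level of 9 B cell genes, none at 0, had medians of 124.3 and 137.4 CPM in the U2AF1(WT) groups (24.6 to 169.8) and 51.7 and 42.9 CPM in the U2AF1(S34F) groups (16.6 to 163.9), and its part was not tested either. In bulk marrow, fewer cells of a type and less RNA per cell cannot be told apart. In 514 of 2077 tested pairs (24.7%), one site had 0 reads in one mouse and 20 or more in another mouse of the same group.

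The pairs were spread over the whole allowed range of distances, with one spike at its lower end. The distance between the sites had quartiles of 24, 62 and 120 bp, and 137 pairs lay exactly 4 bp apart, more than at any other distance. Beyond the limits of the rule, 32 pairs lay 3 bp apart and 92 lay 201 to 210 bp apart, against 78 at 191 to 200 bp. A 5′ site that reads GTNNGT, where N is any base, contains a second GT 4 bases on, and 41.0% of all annotated 5′ sites in the table (68480 of 167145) read so. Among pairs 4 bp apart the distal site has this sequence by construction wherever both sites begin with GT, which was the case in 106 of 137. Only the strand of the gene was searched.

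**Figure D1:**
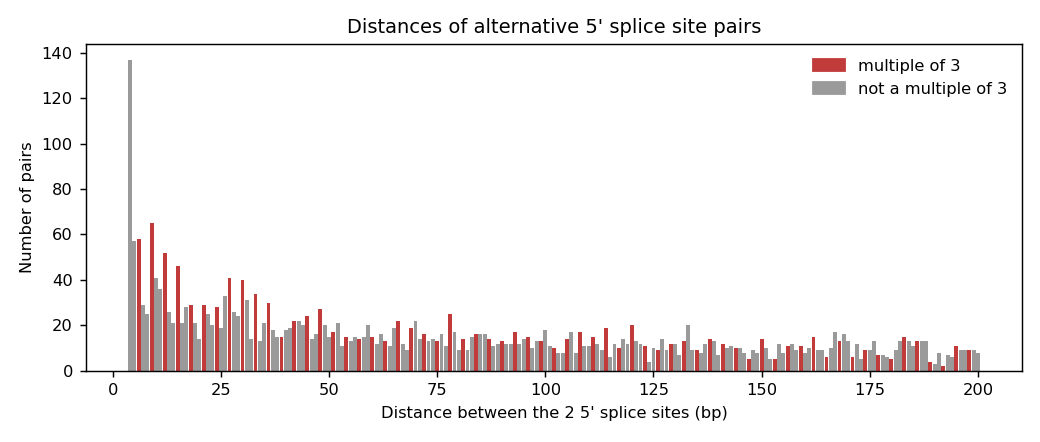
Number of pairs at each distance between the proximal and the distal 5′ site in bp, with distances that are a multiple of 3 in red and the others in grey. The tallest bar is at 4 bp, where 137 pairs lie, and pairs were found up to 200 bp.

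Most pairs were in the protein-coding part of their gene or before it. The distal site lay in the coding sequence for 1697 pairs (53.7%), in the 5′ UTR for 1253 (39.6%) and in the 3′ UTR for 20, while 174 pairs had no protein-coding transcript and 18 could not be placed. A distance that is a multiple of 3 keeps the reading frame, and 41.5% of coding pairs had one, against 32.1% of pairs in the 5′ UTR. Of 1299 coding pairs whose frame could be read on from the distal site, 528 met a stop codon in the stretch that the proximal site adds. GT began the intron at 3052 proximal and 3044 distal sites, and GC at 91 and 107.

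Use of the 2 sites was mixed in about as many pairs as it was one-sided. The proximal share over all mice had a median of 37.9% in tested pairs and was 10 to 90% in 1081 of 2077 (52.0%), with 592 pairs below and 404 above. Sites were scored by the log2 odds of their 9 bases, in bits, from the base use of all annotated 5′ sites in the table. The median share rose from 5.78% where the proximal score was more than 6 bits below the distal to 36.5% where both were within 1 bit and 94.6% where it was more than 6 bits above. Across pairs the share and the score difference had a Spearman correlation of 0.34 (n = 2077), a description only, since pairs can share sites, genes and libraries.

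**Figure D2:**
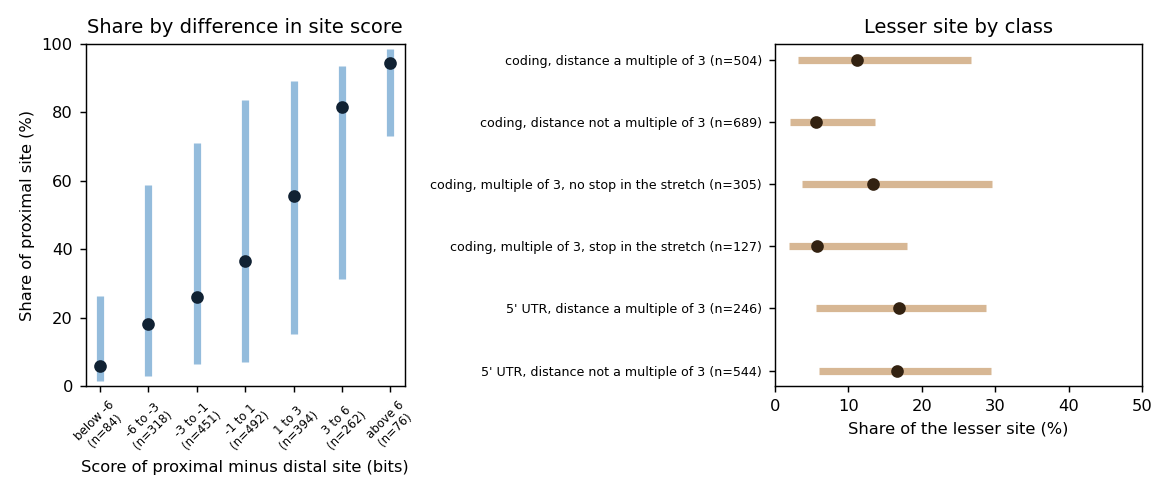
Left, proximal share in percent over all 20 mice by class of score difference in bits, and right, share of the lesser-used site by place and frame, with points for medians and bars from the lower to the upper quartile of tested pairs. The median proximal share climbs from 5.78% in the lowest class to 94.6% in the highest, and the median lesser share in coding pairs is 11.2% at multiples of 3 and 5.65% at other distances.

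The lesser-used site was rarer where it would break the frame of a coding sequence. In coding pairs the lesser site had a median share of 11.2% where the distance was a multiple of 3 (n = 504) and 5.65% where it was not (n = 689). Within the multiples of 3, it was 13.4% without a stop codon in the stretch (n = 305) and 5.71% with one (n = 127). In the 5′ UTR the same split gave 17.0% (n = 246) and 16.6% (n = 544). Where one site was listed only for transcripts marked for nonsense-mediated decay and the other for coding ones, the decay site had a median share of 6.90% and was the major site in 16 of 202 pairs. A GC site beside a GT site had a median share of 15.7% and was the major one in 43 of 124. All these are shares of junction reads in RNA as found, after any decay, and none of the splits was tested.

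Among the most-read pairs of mixed use and the most-read 4 bp apart, the share was held within a narrow band in all groups for some and moved for others. Srsf5, an SR protein that binds exons, has 2 sites 4 bp apart in its 5′ UTR, of which the proximal scores 10.5 and the distal 7.78 bits. Its proximal share was 69.0, 69.5, 69.7, 70.8 and 74.1% in vehicle-treated and 69.0, 69.0, 69.6, 71.8 and 73.2% in drug-treated U2AF1(WT) mice. In U2AF1(S34F) mice it was 68.5, 69.2, 70.0, 72.0 and 72.7% under vehicle and 69.7, 70.8, 71.0, 71.1 and 71.4% under sudemycin. All 4 groups overlapped and their means lay between 70.5 and 70.8%, on 2405 to 4131 reads per mouse. The ribosomal protein gene Rps28 also has its sites 4 bp apart, in the 3′ UTR, and had means of 74.5%, 75.9%, 73.9% and 74.3% in the order of the groups above. Rbm3, a cold-induced RNA-binding protein on the X chromosome, had 26.6%, 25.9%, 24.8% and 24.0%, so that its distal site was the major one although it scores 6.62 against 8.93 bits. In Rpl7a, a ribosomal protein gene whose distal site begins with GC, the proximal share was 99.3%, 99.3%, 98.0% and 99.4%. Arhgdib, a GDP-dissociation inhibitor of blood cells, has its sites 162 bp apart and had 79.1%, 79.4%, 78.1% and 78.6%. None of these 5 pairs passed the test for the drug or the mutant, with adjusted p (FDR) of 0.245 to 0.984. Rpl7a is among them as a pair 4 bp apart and not for mixed use, and the other most-read pairs of mixed use, Csf3r and Rpl38, are described below.

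A pair was called changed when the FDR was below 10% and the mean share differed by more than 1 percentage point, in an edgeR ratio test fitted and adjusted over all 23706 tested pairs that share a splice site. For the mutant over both treatments, 92 of 2077 tested pairs were called (4.43%), against 9.50% of all tested pairs. The proximal share was lower in U2AF1(S34F) mice in 65 and higher in 27, where the directions were called in 5.20% and 4.31% of all pairs. For sudemycin D6 over both genotypes, 16 were called (0.770%), against 3.02% of all pairs, 12 with a higher proximal share (1.19% of all pairs) and 4 with a lower one (1.82%). The summed level of 6 megakaryocyte genes, none at 0, had lower medians under the drug. They were 35.4 against 53.2 CPM in U2AF1(WT) and 26.9 against 47.1 CPM in U2AF1(S34F) mice. Its ranges overlapped, at 23.2 to 58.6 CPM under the drug and 40.6 to 66.4 CPM under vehicle. The summed level of 6 monocyte genes, none at 0, moved with the drug in opposite directions by genotype. Its medians under vehicle and drug were 3583 and 2732 CPM in U2AF1(WT) and 2745 and 3958 CPM in U2AF1(S34F) mice. Its ranges overlapped within each genotype, and the part of either level in the drug results was not tested. Alternative 3′ splice site pairs at the same distances were called at 9.19% (176 of 1916) for the mutant and 1.98% (38 of 1916) for the drug. Tested 5′ pairs had a median of 120.3 reads per mouse against 146.9 over all tested pairs, and the part of depth in these shares was not tested.

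**Figure D3:**
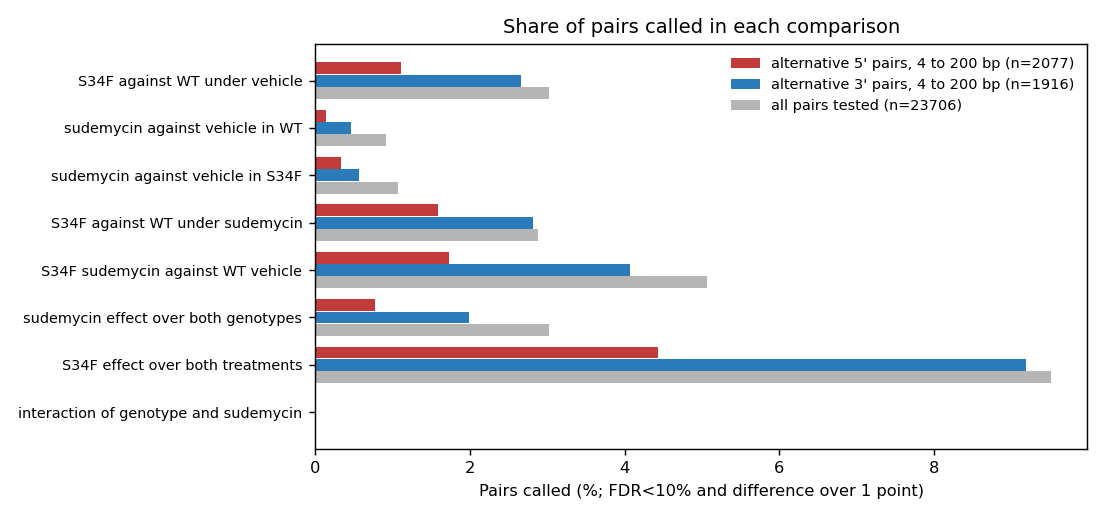
Percentage of tested pairs called in each of the 8 comparisons, for alternative 5′ pairs (red) and alternative 3′ pairs (blue) 4 to 200 bp apart and for all tested pairs (grey). For the mutant over both treatments the 5′ pairs stand at 4.43% against 9.50% over all pairs.

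Sudemycin D6 raised the proximal share most clearly in Rab6, a Golgi trafficking GTPase, and in Csf3r, the receptor of granulocyte colony-stimulating factor. The Rab6 sites lie 172 bp apart (chr7:107778285-107778457, plus strand), and the stretch of the proximal site adds a stop codon. The Rab6 proximal share was 59.3, 61.1, 67.6, 67.7 and 70.0% in vehicle-treated and 80.3, 82.3, 82.7, 83.6 and 83.7% in drug-treated U2AF1(WT) mice. In U2AF1(S34F) mice it was 49.2, 53.1, 57.4, 58.3 and 59.4% under vehicle and 66.3, 66.5, 68.0, 69.3 and 75.1% under the drug. Every treated mouse lay above every vehicle-treated mouse of its genotype. The drug effect was 15.5 points (FDR = 3.58e-09) over both genotypes, 17.4 in U2AF1(WT) and 13.6 in U2AF1(S34F) mice. Between the genotypes Rab6 differed the other way, by -11.6 points in U2AF1(S34F) against U2AF1(WT) mice (FDR = 1.59e-06).

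Csf3r showed the same order of groups with smaller steps. Its sites lie 84 bp apart in the 5′ UTR (chr4:125704560-125704644, plus strand), with 2894 to 6351 reads per mouse, and the distal site scores 11.3 against 8.86 bits. Its proximal share was 73.0, 75.1, 77.2, 77.7 and 78.0% in vehicle-treated and 81.6, 82.5, 82.7, 83.6 and 86.1% in drug-treated U2AF1(WT) mice. In U2AF1(S34F) mice it was 69.1, 69.3, 71.0, 72.5 and 73.4% under vehicle and 75.7, 77.1, 77.3, 78.0 and 80.6% under the drug. Treated and vehicle-treated mice did not overlap within either genotype, and vehicle-treated U2AF1(WT) mice overlapped with treated U2AF1(S34F) mice. The drug effect was 6.88 points (FDR = 2.32e-08) and the mutant effect -5.33 points (FDR = 2.37e-06). With limma on the logit of the share, the Csf3r FDR was 0.141 for the drug and 0.143 for the mutant, above the threshold. Gene-level counts of Rab6 and Csf3r were not called for the drug or the mutant.

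Ctps2, a CTP synthase gene on the X chromosome, rose by 14.6 points with the drug (FDR = 0.0105) at sites 167 bp apart. Its group means were 52.3% ± 8.43, 69.3% ± 12.4, 53.5% ± 3.25 and 65.5% ± 6.35 (SD, n = 5), and its groups overlapped in both genotypes. Pik3ip1, an inhibitor of PI3-kinase, had sites 21 bp apart, and its proximal share was 0, 0, 0, 0 and 4% in vehicle-treated and 0, 1.82, 4.24, 17.4 and 18.8% in drug-treated U2AF1(WT) mice. In U2AF1(S34F) mice it was 0, 0, 0, 0 and 3.03% and 3.45, 7.84, 8.33, 12.5 and 18.9%. The proximal site of Pik3ip1 was thus at or near 0 in every vehicle-treated mouse and had reads in 9 of 10 treated ones (drug effect 8.62 points, FDR = 0.0293), on 24 to 118 reads per mouse. Gsn, the actin-severing protein gelsolin, rose by 27.8 points (FDR = 0.0658) on 14 to 99 reads, with means of 32.1% and 56.9% in U2AF1(WT) and 42.3% and 73.1% in U2AF1(S34F) mice.

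Pias3, which restrains STAT3, rose by 9.89 points (FDR = 0.0772) and Mtmr12, an inactive myotubularin phosphatase, by 8.03 (FDR = 0.0595). The kinase gene Plk3 had a proximal share of 100% in all 10 treated mice and 74.5 to 100% in vehicle-treated mice. Its gene-level counts fell with the drug by 0.83 on the log2 scale (FDR = 0.00323), the one gene of the 16 drug-called pairs that was called at that level. The Plk3 pair had 81 to 100 reads per mouse under vehicle and 37 to 85 under the drug in U2AF1(WT) mice, and 15 to 51 and 33 to 52 in U2AF1(S34F) mice. In 4932438A13Rik, Otud5, a deubiquitinase, and B230312A22Rik, a distal site of minor use was at or near 0 in treated mice, with drug effects of 4.08, 2.01 and 2.27 points (FDR = 0.0283, 0.0528 and 0.0725). In 4932438A13Rik the U2AF1(WT) mice with reads had 100% under both treatments, so that its call rests on vehicle-treated U2AF1(S34F) mice. The remaining rise was in Rpl35a at 45 bp, given with the ribosomal protein genes.

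In 4 coding pairs the drug lowered the proximal share, so that the shorter exon gained. Ncor1, a nuclear receptor corepressor, has its sites 18 bp apart (chr11:62191999-62192017, minus strand), and its share was 42.4, 44.6, 44.6, 48.4 and 49.5% in vehicle-treated and 33.4, 35.4, 37.8, 39.2 and 41.4% in drug-treated U2AF1(WT) mice. In U2AF1(S34F) mice it was 38.9, 44.6, 45.6, 46.6 and 47.7% and 32.3, 37.8, 37.8, 38.8 and 42.5%. The groups did not overlap in U2AF1(WT) and overlapped in U2AF1(S34F) mice, and the share fell by 7.63 points over both (FDR = 0.00338). Ncaph2, a condensin II subunit, has a GT site 17 bp downstream of a GC site, of which the GC site is listed for decay transcripts. Its share of the GT site was 70.2, 70.4, 72.0, 75 and 80.2% in vehicle-treated and 57.4, 66.7, 67.0, 68.6 and 69.7% in drug-treated U2AF1(WT) mice. In U2AF1(S34F) mice it was 71.6, 75.2, 75.5, 75.6 and 75.7% and 60.8, 62.3, 62.4, 65.4 and 71.8%. The Ncaph2 share fell by 8.93 points (FDR = 0.00145), which is a gain of the GC site. Its mean fell in both genotypes but was called in U2AF1(S34F) mice only (FDR = 0.00901, against 0.423 in U2AF1(WT) mice). Lyn, a Src family kinase of myeloid and B cells, fell by 5.14 points (FDR = 0.0375), from 65.5% ± 3.04 to 59.2% ± 7.51 in U2AF1(WT) and from 64.0% ± 2.13 to 60.0% ± 1.11 in U2AF1(S34F) mice. The 63 bp stretch of Lyn is the one that the LynA form of the kinase has and LynB lacks. Zmynd8, a reader of histone marks, fell by 11.2 points (FDR = 0.0750), with overlap in both genotypes. Of the 16 pairs called for the drug, 2 were also called by limma, namely Rab6 and Pik3ip1. With an estimated dispersion 3 were called, these and Csf3r, so that the remaining rises were called by neither. Ncor1, Ncaph2, Lyn and Zmynd8 were called by neither, with FDR of 0.183 to 0.567 by limma and 0.118 to 0.517 with an estimated dispersion.

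**Figure D4:**
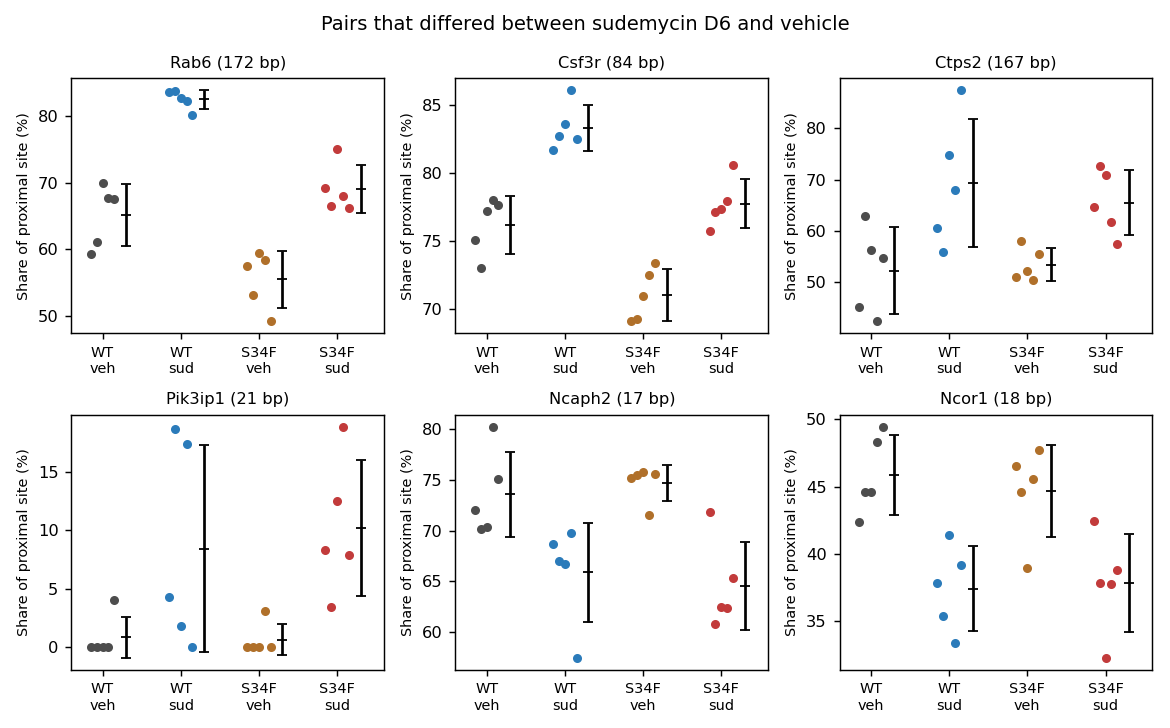
Proximal share in percent of each mouse in the 4 groups for pairs called with sudemycin D6, one panel a pair with an axis of its own that need not start at 0, with points for mice and bars for the group mean ± SD. In Rab6 the 5 drug-treated U2AF1(WT) mice sit between 80.3 and 83.7%, above the 59.3 to 70.0% of the vehicle-treated ones.

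By genotype, the drug changed 3 of 2077 tested pairs in U2AF1(WT) mice (0.911% of all pairs called) and 7 in U2AF1(S34F) mice (1.07%), 3 and 6 of them with a higher proximal share. Rab6 and Csf3r were the pairs called in both genotypes, which share no mice in these comparisons, and make up 66.7% of the first list and 28.6% of the second. By limma and by edgeR with an estimated dispersion 0 pairs were called in either genotype, with 92 and 53 pairs at an unadjusted p under 0.05 in U2AF1(WT) and 121 and 85 in U2AF1(S34F) mice. The remaining call in U2AF1(WT) mice was Arhgef18, a guanine nucleotide exchange factor with 0 to 85 reads per mouse, whose share was 54.5, 63.9, 64.2, 78.1 and 100% under vehicle and 100% in each under the drug. The interaction of genotype and drug was called in 0 of 2077 pairs (0.00422% of all pairs) by edgeR, with 77 pairs (3.71%) at an unadjusted p under 0.05, and in 0 by limma and by edgeR with an estimated dispersion. A difference between the genotypes in the response of these pairs was not detectable at this depth, and the smaller number of calls in U2AF1(WT) mice does not show one.

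More pairs were called between the genotypes than for the drug, most of them with a lower proximal share in U2AF1(S34F) mice. Over all tested 5′ pairs the median difference in mean share between U2AF1(S34F) and U2AF1(WT) mice was -0.40 points, and 58.5% of pairs lay lower. Over all kinds of tested pair the median was -0.07 points, and 51.9% lay lower. Alternative 3′ pairs at the same distances had a median of -0.30 points, 57.7% of pairs lower and 135 of 176 calls lower, and the difference between the kinds was not tested. The per-mouse median share was 37.8 to 40% and 37.7 to 40.4% in U2AF1(WT) mice under vehicle and drug, and 36.3 to 38.9% and 36.3 to 37.9% in U2AF1(S34F) mice. The 92 called pairs lay in 82 genes and had a median absolute difference of 9.48 points. The genotypes were compared in separate mice under each treatment. This called 23 pairs under vehicle (8 higher, 15 lower, 3.03% of all pairs called) and 33 under sudemycin (10 higher, 23 lower, 2.89%). Both lists held 14 pairs, or 60.9% of the first and 42.4% of the second. Both comparisons have the sex pattern named above, so the overlap does not separate it from the transgene. In the same order limma called 4 and 12 pairs and an estimated dispersion 1 and 0. In the latter, 130 of 2077 pairs (6.26%) had an unadjusted p under 0.05. Under sudemycin the count was 21 without drug-treated U2AF1(S34F) mouse 2 and 19 without mouse 9 of that group.

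Among the pairs that moved to the proximal site with the mutant, Lyrm5, a mitochondrial LYR-motif protein, had 2 weak sites 8 bp apart that score 4.69 and 2.46 bits. Its proximal share was 65.7, 67.1, 82.8, 86.2 and 90.3% in vehicle-treated and 67.6, 72.7, 89.7, 90.9 and 94.4% in drug-treated U2AF1(WT) mice, and 100% in all 10 U2AF1(S34F) mice. The Lyrm5 groups of the 2 genotypes did not overlap, and the mutant effect was 19.3 points (FDR = 9.64e-07) on 29 to 151 reads per mouse. Celf2, an RNA-binding regulator of splicing, has its sites 12 bp apart in frame (chr2:6481705-6481717, minus strand), and its share was 46.0, 50.5, 51.7, 56.2 and 60.6% in vehicle-treated U2AF1(WT) and 59.7, 61.0, 61.6, 62.6 and 64.0% in vehicle-treated U2AF1(S34F) mice. Under sudemycin D6 it was 47.8, 50, 51.4, 54.4 and 60.1% in U2AF1(WT) and 60.7, 62.1, 62.3, 63.2 and 65.7% in U2AF1(S34F) mice. The Celf2 groups overlapped by 1 U2AF1(WT) mouse under vehicle and not at all under the drug, with a mutant effect of 9.45 points (FDR = 7.27e-05). In 2510006D16Rik, at sites 109 bp apart, the proximal site is listed for decay transcripts and adds a stop codon. It rose by 11.6 points (FDR = 4.43e-04), from 49.0% ± 7.70 to 60.7% ± 2.48 under vehicle and from 47.2% ± 1.81 to 58.7% ± 4.01 under the drug.

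The largest difference in a called pair was a rise in AA987161 of 70.1 points (FDR = 1.21e-05), and the neighbouring gene Zfp738 moved the other way by -30.0 points (FDR = 0.00541). The AA987161 proximal share was 0, 0, 16.1, 28.3 and 36.7% in vehicle-treated U2AF1(WT) and 54.8, 80.0, 87.5, 100 and 100% in vehicle-treated U2AF1(S34F) mice, on 2 to 49 reads per mouse over all groups. Both genes lie on chromosome 13 with sites 30 bp apart and the same 9 bases at the proximal site, cagGTctga, so that reads may be split between near-identical copies and both values are uncertain. The same holds for the paralogs Trim12a and Trim12c, whose sites are 110 bp apart in both. Trim12c had 45.8% ± 5.66, 51.2% ± 13.8, 26.6% ± 4.32 and 20.9% ± 3.48 in the order of the groups above, and fell by 24.8 points with the mutant (FDR = 5.05e-05). Trim12a fell by 21.9 points (FDR = 1.82e-08), to 0% in all vehicle-treated U2AF1(S34F) mice, while its gene-level counts fell by 3.19 on the log2 scale.

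Lgals8, the gene of galectin-8, moved to the distal of 2 sites 186 bp apart in the 5′ UTR. Its proximal share was 46.5, 48.4, 59.1, 64.6 and 75.5% in vehicle-treated U2AF1(WT) and 25.3, 26.0, 26.2, 29.6 and 38.5% in vehicle-treated U2AF1(S34F) mice. Under the drug it was 44.4, 47.7, 50.8, 77.1 and 84.9% and 31.3, 34, 43.3, 43.3 and 44.8%. The Lgals8 genotypes were apart under vehicle and met under the drug (mutant effect -25.7 points, FDR = 4.52e-05). Lilra6, a leukocyte immunoglobulin-like receptor, has a distal GC site 114 bp from a strong GT site, and the GT site fell from 96.3% ± 1.79 to 85.6% ± 5.00 under vehicle and from 93.5% ± 5.22 to 84.8% ± 2.39 under the drug (FDR = 1.35e-05). Hmgn2, a nucleosome-binding protein, had called pairs in both directions, at 111 bp with -15.6 points (FDR = 1.29e-05) and at 61 bp with 48.1 points (FDR = 0.0241). The distal site of the latter is the proximal site of the former, and the latter had only 0 to 53 reads per mouse.

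Pairs with few reads made up much of the top of the list by size. Trmt1, a tRNA methyltransferase, was called in 2 pairs that share their 5′ sites 27 bp apart and differ in the 3′ site, with -35.3 and -18.3 points (FDR = 0.0194 and 0.0385), and these are not independent. Haghl, with sites 5 bp apart and 2 to 34 reads per mouse, had -35.0 points (FDR = 0.0621). Eif4a2, a translation initiation helicase, fell by 14.5 points (FDR = 0.0218), with a mouse without reads. Phc2, a polycomb protein, was called under vehicle only, with 25.8 points (FDR = 0.0846). In 19 of the 92 mutant calls and 4 of the 16 drug calls, one of the 2 sites had at most 3 reads in every mouse of a group.

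Further called pairs, chosen after their values were seen as well, follow here. Sirpa, the inhibitory receptor for CD47 on myeloid cells, fell at 2 pairs in the 5′ UTR, by 10.2 points at 183 bp (FDR = 0.00463) and 9.47 at 112 bp (FDR = 0.0292), which share the distal junction. Tfdp1, the partner of E2F factors, fell by 8.19 points (FDR = 0.000949), Fen1, the flap endonuclease, by 9.73 (FDR = 0.042), and Parp9, an interferon-induced ADP-ribosyltransferase, by 14.8 (FDR = 0.00485). Tle3, a corepressor, fell by 14.1 points (FDR = 0.0817). Pqbp1, a splicing-associated protein on the X chromosome, fell at 2 pairs, by 5.80 points at 195 bp and 28.8 at 186 bp (FDR = 0.0698 and 0.0958), which also share the distal junction. Those that rose included Hk3, the hexokinase of myeloid cells, by 2.90 points (FDR = 0.00129), Nup98, a nucleoporin, by 5.00 (FDR = 0.0999), and Fbxo6, an F-box protein for glycoproteins, at 2 pairs with a common distal junction by 11.3 and 22.8 (FDR = 0.0258 and 0.0343). By place in the gene, 30 of the 65 pairs that fell were coding and 32 in the 5′ UTR, and 16 and 10 of the 27 that rose. Of the 92, limma also called 48 and edgeR with an estimated dispersion 35, and 31 were called by all.

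**Figure D5:**
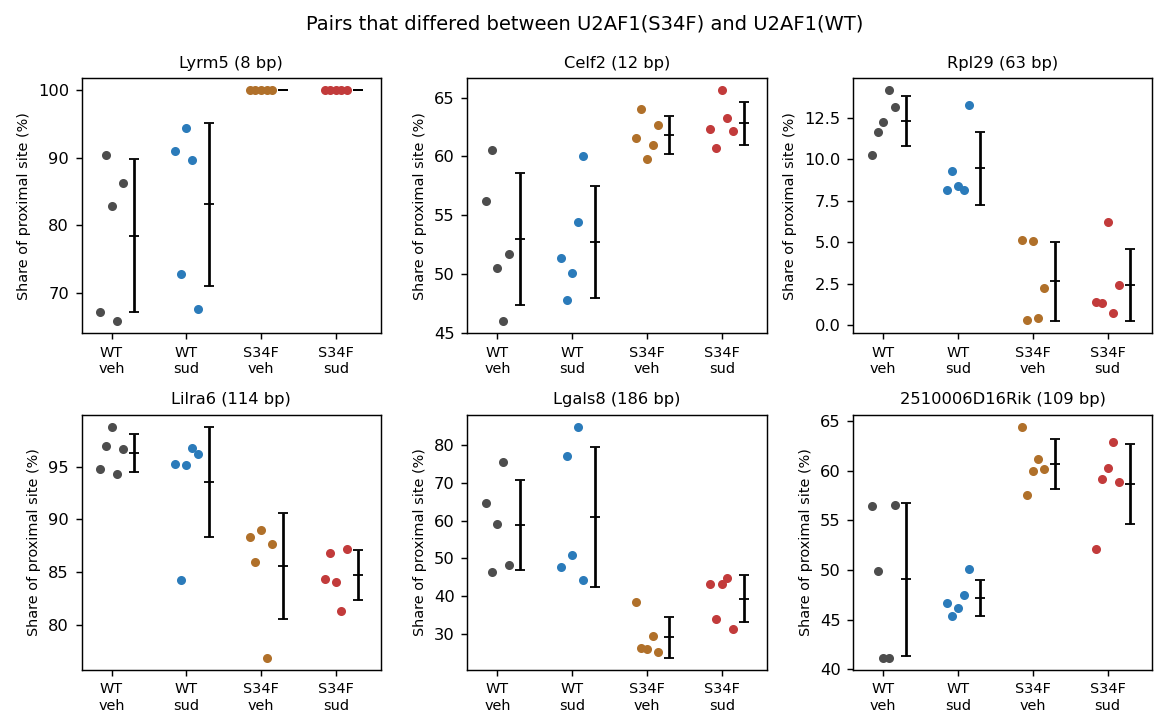
Proximal share in percent of each mouse in the 4 groups for pairs called with U2AF1(S34F), one panel a pair with an axis of its own that need not start at 0, with points for mice and bars for the group mean ± SD. In Lyrm5 all 10 U2AF1(S34F) mice are at 100%, and the U2AF1(WT) mice lie between 65.7 and 94.4%.

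Ribosomal protein genes were looked at as a group after their values were seen, because 6 of their pairs were among the mutant calls. They held 40 pairs, of which 38 in 19 genes were tested, and the 6 of 38 that were called, against 4.43% of all tested 5′ pairs, all fell, namely Rpl29, Rpl38 and 2 each in Rpl15 and Rpl35a. They had a median of 2289 reads per mouse against 120.3, and the part of depth in this count was not tested. Over the 38 pairs the median difference was -0.37 points against -0.40 over all tested 5′ pairs. The group as a whole thus lay where the rest did. Rpl29 has its sites 63 bp apart in the 5′ UTR, the proximal one beginning with GC, and its share was 10.3, 11.7, 12.2, 13.2 and 14.2% in vehicle-treated U2AF1(WT) and 0.306, 0.411, 2.24, 5.08 and 5.14% in vehicle-treated U2AF1(S34F) mice. Under the drug it was 8.13, 8.14, 8.40, 9.31 and 13.3% and 0.742, 1.33, 1.40, 2.39 and 6.20%. The Rpl29 genotypes did not overlap under either treatment (mutant effect -8.35 points, FDR = 1.72e-07), and its gene-level counts fell by 1.68 on the log2 scale. Rpl15 fell by 8.28 points at 22 bp and 2.85 at 136 bp, which share the proximal junction. Rpl35a fell by 3.54 points at 45 bp (FDR = 0.00982) and fell by 2.52 at 107 bp (FDR = 0.00488), which share the distal junction. With the drug, Rpl35a at 45 bp rose by 3.26 points (FDR = 0.0420), from 16.3% ± 1.47 to 20.6% ± 2.66 in U2AF1(WT) mice. Rab6, Csf3r and this Rpl35a pair were the 3 pairs called for both effects, and in all 3 the drug raised and the mutant lowered the proximal share. Rpl38, one of the most-read pairs, fell by 2.45 points at 17 bp (FDR = 0.0516).

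Drug-treated U2AF1(S34F) mice were also set against vehicle-treated U2AF1(WT) mice, the comparison of both changes together. It called 36 pairs (12 higher, 24 lower) against 5.06% of all pairs, and limma called 16 and an estimated dispersion 8. The count was 58 without vehicle-treated U2AF1(WT) mouse 2 and 21 without drug-treated U2AF1(S34F) mouse 2. Those named by size were AA987161, Gsn, Sun2 and Xlr4c. For Gsn the share was 19.6, 26.8, 28.6, 42.9 and 42.9% in vehicle-treated U2AF1(WT) and 60.0, 63.6, 67.3, 74.7 and 100% in drug-treated U2AF1(S34F) mice, which did not overlap. Sun2, a nuclear envelope protein, was 0, 35.6, 42.9, 45.2 and 48.1% and 0% in each, but single mice of the groups between were either at 0% or near 45%, and neither pooled effect was called (FDR = 0.413 for the drug and 0.450 for the mutant). Xlr4c, of the X-linked lymphocyte-regulated family, had means of 89.4%, 83.4%, 78.9% and 59.0% in the order of the groups above. Its call (FDR = 0.0559) was kept in 5 of 10 fits without one mouse. Xlr4b of the same family, chosen after its values were seen, was called too (-23.2 points, FDR = 0.0945). Both have sites 36 bp apart with the same scores, so that reads may be split between near-identical copies and both values are uncertain.

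The make-up of the called pairs is given beside that of the tested ones, as counts without a test. The 65 pairs lower in U2AF1(S34F) mice had a median distance of 105 bp and 52.3% multiples of 3. The 27 higher pairs had 79 bp and 25.9%, and all tested 5′ pairs 61 bp and 37%. By distance, the mutant called 0 of 89 tested pairs 4 bp apart, 6 of 247 at 5 to 12 bp, 20 of 600 at 13 to 50 bp, 20 of 476 at 51 to 100 bp and 46 of 665 (6.92%) at 101 to 200 bp. Median reads per mouse were 138.45 in the first of these classes and 114.95 in the last. U2AF1 reads the base before the AG of the 3′ site. A T there was found in 27.7% of pairs lower with the mutant (18 of 65), 44.4% of pairs higher (12 of 27) and 29.6% of tested pairs. Since both sites of a pair share that 3′ site, the base is the same for both.

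Genes that act at the 5′ splice site were examined as pairs and as genes. Of 44 genes on that list, 10 held 17 tested pairs. The SR protein gene Srsf5 has 2 further tested pairs in its 5′ UTR, with pooled shares of 38.1 and 20.4% and mutant differences of -2.50 and -1.84 points (FDR = 0.30 and 0.26). Srsf2, Srsf1 and Srsf6 had pairs in transcripts without a coding sequence, with pooled shares of 11.5, 81.0 and 93.9%. Those of Hnrnph1, which binds G-rich RNA, had 57.7 to 91.3%, and those of Tia1, which helps U1 at weak sites, 1.54, 16.4 and 95.7%. None of these moved past the test for the drug or the mutant. In the apoptosis list of 14 genes, which holds only some of the family, Bcl2l1 alone held pairs, of which the 2 tested, 199 and 155 bp apart, were called in none of the 8 comparisons, with FDR of 0.803 and 0.371 for the mutant. The pair at 155 bp had means of 78.6%, 85.6%, 91.4% and 90.1% on 26 to 100 reads per mouse. Bad, a pro-apoptotic BCL2-family gene outside that list and chosen after its values were seen, had a pair 184 bp apart called for the mutant under vehicle (21.7 points, FDR = 0.0620) but not over both treatments (11.3 points, FDR = 0.242). Among 26 blood transcription factors, 5 pairs in Ebf1, Ikzf1, Lmo2 and Zbtb7a were tested and none was called. Wt1 and U2af1 held no pair. These lists hold too few pairs to be read against the background.

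At gene level, 8 of 43 tested genes of the 5′ splice site list were called for the drug, against 15.0% of all tested genes, 7 higher and 1 lower. The higher ones were led by Snrnp200 and Prpf8, core proteins of the U5 snRNP that act when U1 gives way to U6, with log2 changes of 0.35 and 0.28, and by Ddx23, a helicase of the same step, with 0.27. Srsf5 was lower by a log2 change of -0.23. For the mutant, 26 of 43 were called, 17 higher and 9 lower, against 53.1% of all genes, with Lsm5, a U6-binding protein, at 0.98 and Srsf5 at -0.42. U2af1 itself rose by 0.43 with the mutant (FDR = 6.38e-07) and by 0.17 with the drug (FDR = 0.0276). Of the 82 genes with a pair called for the mutant, 49 were called as genes (59.8%), 28 higher and 21 lower, and of the 16 with a pair called for the drug, 1.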

How the data were processed

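Bulk bone marrow RNA, depleted of ribosomal RNA and made into stranded libraries, was sequenced from 20 mice. Counts of reads per splice junction and per gene were deposited by the authors without normalization, after alignment to mm9 (NCBI build 37), and TopHat2 2.0.8 and SAMtools are named in the submitters' processing notes. The program that counted reads is not given in the sources used here. Depth was 34384214 to 64813149 junction reads per mouse, and counting error limits pairs with few reads most. Junction counts were not corrected for the length of read that can span each junction, which is the same for both sites of a pair. Reads that span a junction with few bases on one side can be placed at the wrong one of 2 near sites, so shares of pairs a few bp apart rest on the authors' alignment.

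A pair was formed from 2 annotated junctions (DA in the table, known at both ends and as a junction) with the same 3′ site and 5′ sites 4 to 200 bp apart. Pairs were tested when the mean over mice was at least 10 reads on both sites and 1 on the lesser. The counts on the 2 sites were tested together in edgeR 4.0.16 (R 4.3.3) with a term per mouse and a term for the effect of the group on the proximal count, the dispersion set to 0 and variation beyond Poisson left to the robust quasi-likelihood term. The 5 two-group comparisons were fitted on their own 10 mice, and the drug effect, the mutant effect and their interaction on all 20. P-values were adjusted by Benjamini-Hochberg over all 23706 tested pairs that share a splice site, and a call needed FDR below 10% and a difference in mean share above 1 point. A pair with no read in a mouse drops that mouse from its group mean. Genes were tested with edgeR (TMM, quasi-likelihood) at the same FDR, and CPM scales a count to the total of its library. limma 3.58.1 on the logit of the share with 0.5 added to each count, an estimated dispersion, other limits, DESeq2 1.42.0 for genes, a replicate block and fits without one of the mice were tried as alternatives. The ratio test was tried on simulated data for the genotypes under vehicle, the drug effect and the mutant effect. The gene test was tried so for the drug effect only. The other fits and the sequence steps were not.

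The pairs, gene lists and limits were chosen with earlier results of these data known. Some genes are not reported here. Pairs were named by a rule: in each of the 8 tests the 4 called pairs with the largest difference in a gene with a symbol, the 6 most-read pairs of mixed use, the 4 most-read pairs 4 bp apart, pairs in Bcl2l1, Wt1 and U2af1, and called pairs of the gene lists. Outside it, 18 pairs shown by mouse were chosen after their values were seen, namely B230312A22Rik, Celf2, Hmgn2 at 111 bp, Lilra6, Lyn, Lyrm5, Ncor1, Otud5, Pias3, Pik3ip1, Plk3, Rpl29, Trim12a, 2510006D16Rik and the pairs of Rpl15 and Rpl35a. Gene-level values were named for U2af1, for called genes of the list with the largest changes and, after their values were seen, for genes of named pairs. Mice of a group differed from each other by a chi-square per degree of freedom of 5.92 to 54.2 over tested pairs, so that no library was counted as deposited more than once. Pairs were put into mm9 transcripts of GENCODE and sequence read with pysam 0.24.0; Python 3.11.15, pandas 2.3.3, numpy 2.4.6 and matplotlib 3.10.9 were used.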

Additional observations from a re-analysis of the deposited data

Results flagged for a closer look

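In 21 of 192 groups of 5 mice, over the 48 pairs shown by mouse, one mouse stood far from the other 4 by Dixon's criterion, which chance meets in about 1 in 20 groups. Many are pairs in which most mice lie at 0 or at 100% and one does not, a shape that meets the criterion by construction. The mouse apart was at 13.8% in vehicle-treated and 21.4% in drug-treated U2AF1(S34F) mice for Eif4a2, with the others at 0%. For Pik3ip1 it was at 4% in vehicle-treated U2AF1(WT) and 3.03% in vehicle-treated U2AF1(S34F) mice, with the others at 0%, for Haghl at 20% in vehicle-treated and for Hmgn2 at 111 bp at 2.82% in drug-treated U2AF1(S34F) mice, again with the others at 0%. For Otud5 it was at 97.5% in drug-treated U2AF1(WT) and 98.9% in drug-treated U2AF1(S34F) mice, and for B230312A22Rik at 99.1% in drug-treated U2AF1(WT) mice, with the others at 100%.

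For Hmgn2 at 61 bp, one drug-treated U2AF1(S34F) mouse was at 0% with the other 3 that had reads at 100%, and for Sun2 one vehicle-treated U2AF1(WT) mouse was at 0% with the others at 35.6 to 48.1%. For Gsn, one drug-treated U2AF1(WT) mouse was at 100% with the others at 38.5 to 55.6%.

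Among pairs with more reads, one drug-treated U2AF1(WT) mouse had 57.4% for Ncaph2 (others 66.7 to 69.7%), 84.3% for Lilra6 (others 95.1 to 96.7%) and 13.3% for Rpl29 (others 8.13 to 9.31%), which need not be the same mouse. In vehicle-treated U2AF1(S34F) mice the value apart was 71.6% for Ncaph2 (others 75.2 to 75.7%), 76.9% for Lilra6 (others 86.0 to 89.0%), 14.7% for Rpl38 (others 11.6 to 12.4%) and 66.2% for Bcl2l1 at 155 bp (others 90.7 to 100%). In drug-treated U2AF1(S34F) mice it was 31.0% for Zfp738 (others 8.70 to 13.3%) and 97.1% for Rpl7a. The causes were not tested.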

How the results depend on the processing

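The number of called pairs depends most on how the spread between mice is modelled. limma on the logit of the share called 4 pairs for the genotypes under vehicle, 12 under sudemycin and 16 for both changes together. It called 4 for the drug over both genotypes, 58 for the mutant over both treatments, and 0 for the drug in either genotype. In the last of these, 92 and 121 of 2077 pairs had an unadjusted p under 0.05. An estimated dispersion in edgeR called 1, 0 (130 of 2077 at an unadjusted p under 0.05), 8, 3 and 36 in that order. For the drug in either genotype it called 0 (53 and 85 of 2077). At FDR below 5% the counts were 20 for the genotypes under sudemycin, 20 for both changes together, 9 for the drug and 55 for the mutant. One model of all mice gave 6 for the drug in U2AF1(WT) and 4 in U2AF1(S34F) mice. With all genes that have a read, 5 genes of the 5′ splice site list were called for the drug. A minimum of 20 reads, no minimum on the lesser site, a limit of 5 points and neighbouring sites only kept every count within 1.5 times. The causes were not tested.

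Leaving out one mouse at a time gave 16 to 27 called pairs for the genotypes under vehicle, 3 to 7 for the drug in U2AF1(WT), 5 to 9 for the drug in U2AF1(S34F), 19 to 34 for the genotypes under sudemycin, 21 to 58 for both changes together, 11 to 18 for the drug, 75 to 97 for the mutant and 0 for the interaction, and 5 to 11 and 24 to 29 genes of the 5′ splice site list for the drug and the mutant. Both changes together gave 58 without vehicle-treated U2AF1(WT) mouse 2 and 21 without drug-treated U2AF1(S34F) mouse 2. The genotypes under sudemycin gave 21 without that latter mouse and 19 without mouse 9 of its group. The drug in U2AF1(WT) gave 6 without vehicle-treated mouse 2, 7 without sudemycin-treated mouse 6, and 5 without mouse 8, 10 or 12. The gene list gave 5 without vehicle-treated U2AF1(S34F) mouse 1 or vehicle-treated U2AF1(WT) mouse 1 or 3.

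Mouse numbers in the labels gave no sign of pairing. Same-numbered mice had correlations of -0.083 to 0.015 in their deviations, and mice with different numbers -0.087 to 0.067. Counting error also lowers such correlations, so they cannot exclude pairing or a shared batch. A replicate block on these numbers left 39 mutant calls (16 higher, 23 lower), 16 for the genotypes under vehicle and 27 under sudemycin. Of 19 two-group calls of named pairs, 13 had groups that did not overlap, and 13 to 15 with one mouse left out. These pairs were named for being called with large differences, so that groups apart are largely built in. The same share over all tested pairs was not counted. Of 1337 values for 55 results on named pairs, 1151 kept their call, 186 lost it and 0 changed direction. Depth limits what can be seen: a tested pair had a median of 120.3 reads per mouse, and a site at 0 in one mouse and at 20 or more reads in another of its group occurred in 24.7% of tested pairs.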
